A study of Mus musculus with 11 samples.

Results

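The regions described here are places in the genome of stimulated B cells where IRF4 and PU.1 peaks coincided on both days examined. They are the peaks of the IRF4 day 1 list that lay less than 200 bp from a peak in the IRF4 day 3 list and in the PU.1 lists of both days. They number 697 of 2496, or 27.9% of the IRF4 day 1 list, and are called the core below. They were chosen by the authors' peak calls alone, and neither the enrichment values nor sequence was used beyond those calls. The calls themselves depend on enrichment over input, whose lowest value in a library's list ran from 14.95 to 21.9. The other 1799 peaks of that list, and 3 like groups of regions, serve as comparison. In ChIP-seq, DNA attached to a protein is pulled out with an antibody and sequenced, and a peak is a place where such DNA piles up over an input library. The cells were resting mature B cells purified from spleens of B1-8i mice, a strain on the 129 background whose gene-targeted antigen receptor recognises the hapten NP. NP-Ficoll, CD40L and the interleukins IL-2, IL-4 and IL-5 were added to all cultures. Cells were harvested on day 3, after differentiation into plasma cells (3 IRF4 and 2 PU.1 libraries), or on day 1, when activated but not yet differentiated (again 3 and 2). Peaks average over all cells of a culture.

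PU.1 belongs to the Ets family, whose members recognise GGAA, and is known in B and myeloid cells. IRF4 recognises GAAA but binds most DNA weakly on its own, and it is known to bind beside a partner that is already on the DNA. With PU.1 it uses the Ets-IRF composite element (EICE), known from enhancers of immunoglobulin light chain genes, in which GGAA and GAAA follow each other on the same strand with 2 bases between. With AP-1 proteins such as BATF it uses an AP-1-IRF composite element (AICE), and pairs of IRF sites form the interferon-stimulated response element (ISRE).

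Among the elements tested, the EICE had the largest difference in share between the core and other IRF4 day 1 peaks, so stretches around it are shown here for the leading regions, with the element in capitals. Regions are ranked by their mean percentile of enrichment over the 4 lists, of which the IRF4 lists each mix values of 2 libraries, and some leading regions are named later without sequence. All sequences are from mm9, written 5′ to 3′ on the strand that reads GGAA first. Those listed directly below hold the same spacer, CT, between GGAA and GAAA.
Snx29, intron, chr16:11386047-11386086, minus strand: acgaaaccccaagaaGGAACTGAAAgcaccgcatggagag
28.1 kb from the Med21 start, chr6:146623768-146623807, plus strand: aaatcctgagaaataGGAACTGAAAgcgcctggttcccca
Heg1, intron, chr16:33745744-33745783, plus strand: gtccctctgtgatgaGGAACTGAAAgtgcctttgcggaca
Cnpy3, promoter, chr17:46888528-46888567, minus strand: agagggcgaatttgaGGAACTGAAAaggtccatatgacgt
Ppp1r12a, intron, chr10:107628778-107628817, minus strand: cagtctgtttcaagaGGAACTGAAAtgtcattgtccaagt
Hps3, intron, chr3:19927498-19927537, minus strand: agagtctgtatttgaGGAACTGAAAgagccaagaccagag
15.6 kb from the Siglecg start, chr7:50647934-50647973, plus strand: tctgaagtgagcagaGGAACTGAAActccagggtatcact

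Leading regions without an EICE are shown for contrast. The first 2 hold the element with GAGA in place of GAAA (capitals), and the third, beside Syk, holds neither form.
Acoxl, intron, chr2:127834707-127834746, plus strand: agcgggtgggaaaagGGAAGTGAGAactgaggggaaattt
6.69 kb from the 4930426L09Rik start, chr2:18926626-18926665, minus strand: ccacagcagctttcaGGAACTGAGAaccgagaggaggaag
10.5 kb from the Syk start, chr13:52668040-52668100, plus strand: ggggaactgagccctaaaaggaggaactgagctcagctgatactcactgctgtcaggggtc

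Membership was broad for PU.1 and less even for IRF4. All 4 PU.1 libraries had a peak at 696 of the 697 regions. All 6 IRF4 libraries had one at 209 regions, 5 of 6 at 298 and 4 of 6 at 190. On day 3, 651, 553 and 586 core regions had a peak in IRF4 replicates 1, 2 and 3, against 406, 654 and 654 on day 1. The low value belongs to day 1 replicate 1, whose own list was short (825 peaks, against 9326 and 8929 in the other day 1 replicates). Core regions made up 49.2% of that short list. The size of the core depended on the libraries combined. With the lists rebuilt without IRF4 day 1 replicate 2 or 3 the core held 363 regions in either case, and without IRF4 day 3 replicate 1 it held 442. The rebuilt list then needed a peak in both libraries left, which for the 363 regions included the short list of day 1 replicate 1. The rule used these calls, so they are given as a description.

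Peak positions of the lists fell close together. The largest of a region's 3 partner distances had a median of 38 bp (quartiles 24 and 60), and 648 regions (93.0%) had all partners under 100 bp. The rule used these distances, so they are a description. Just inside the limit were regions near Tubgcp5 (183 bp), Hlcs (184 bp), Gm6034 (186 bp) and Specc1l (195 bp). Just outside were peaks near Sgk3 (233 bp) and Hdgfrp3 (237 bp). Core regions were spread over 20 chromosomes, from 2 on X and 17 on chromosome 18 to 54 on chromosome 1, and 36 neighbouring pairs lay within 20 kb of each other.

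**Figure D1:**
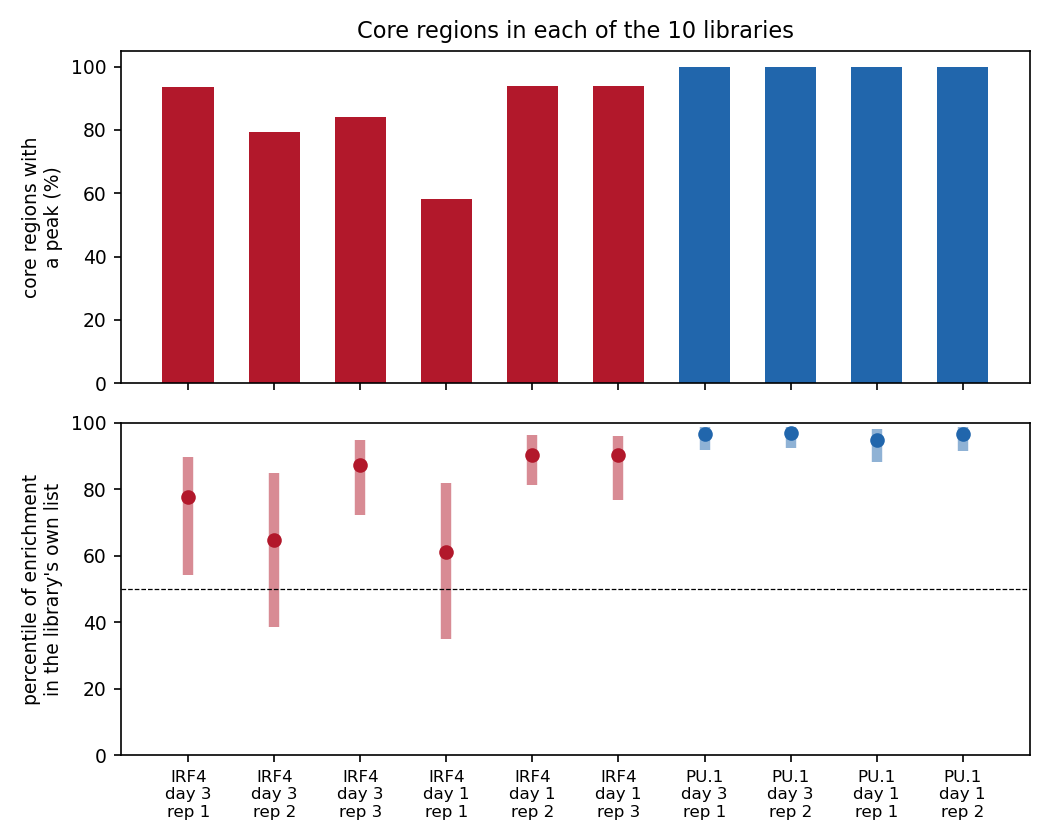
Share of the 697 core regions with a peak in each library (upper panel, bars) and the percentile of those peaks by maximum enrichment within the library's own list (lower panel, point for the median and bar for the quartiles, dashed line at the middle of the list). IRF4 libraries are red and PU.1 libraries blue. PU.1 medians lie between 95 and 96.9, whereas IRF4 medians range from 61.2 to 90.4.

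Most core regions ranked high among PU.1 peaks, and their ranks among IRF4 peaks were spread more widely. The rule asked for a call in all 4 lists, so these ranks are a description. How far the rule favours strong peaks was not tested. The top 10% of the PU.1 day 1 list held 454 of 697 core regions. It held 184 of 588 IRF4 day 1 peaks with a PU.1 day 1 but no IRF4 day 3 partner, and 1034 of 12542 PU.1 peaks of both days without IRF4. The authors' maximum enrichment, a fold over input, was used to rank peaks. In the PU.1 group lists 96.6% (day 3) and 95.55% (day 1) of core regions were in the upper 50%, and 66.3% (day 3) and 65.1% (day 1) in the top 10%. In the IRF4 group lists the share in the top 10% was 16.8% (day 3) and 11.8% (day 1). The core made up 35.5% (day 3) and 27.9% (day 1) of these lists, so most of it could not be in their top 10%. It made up 3.26% (day 3) and 3.17% (day 1) of the PU.1 lists, where all of it could. By single library, 24.4%, 17.4% and 41.98% of called core regions were in the top 10% in IRF4 day 3 libraries. In IRF4 day 1 libraries the share was 14.8%, 52.3% and 50.9%. The same share was 79.8% and 80.5% in PU.1 day 3 libraries and 70.4% and 78.05% in PU.1 day 1 libraries. It was capped likewise wherever the core made up over 10% of a library's list, up to 49.2% in IRF4 day 1 replicate 1. The median percentile in the IRF4 group lists was 67.8 on day 3 and 53.8 on day 1, against 94.6 on day 3 and 93.8 on day 1 for PU.1. Each IRF4 group list ranks values of 2 libraries together. For the core, 406 values of the day 1 list are from replicate 1 and 291 from replicate 2, whose own lists gave the core median percentiles of 61.2 and 90.4. In the day 3 list 651 are from replicate 1 and 46 from replicate 2. Each PU.1 group list takes all its values from replicate 1.

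Correlations of enrichment were taken for some pairs of libraries, not for all. For PU.1 the value between days lay close to that within day 3. For IRF4 the values between days lay near or below the lowest of those within a day. Across 697 regions Spearman's rho between PU.1 day 3 replicate 1 and day 1 replicate 1 was 0.89, and between PU.1 day 3 replicates 1 and 2 it was 0.89 across 696 regions. Between IRF4 day 3 replicate 1 and day 1 replicate 2 it was 0.56 across 610 regions, and with day 1 replicate 1 in its place 0.52 across 391 regions. Within IRF4 day 3 it was 0.68 (507 regions) between replicates 1 and 2 and 0.56 (540 regions) between replicates 1 and 3, and within day 1 it was 0.62 (611 regions) between replicates 2 and 3. Between IRF4 and PU.1 it was 0.28 on day 3 (651 regions) and 0.21 on day 1 (654 regions). These are correlations across regions, which share the input library and the local base composition, and regions are not replicates.

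The region with the highest mean percentile lay in an intron of Snx29, a gene of the sorting nexin family. Its enrichments were 127, 88.8 and 121 in the IRF4 day 3 libraries and 115, 210 and 149 in the IRF4 day 1 libraries. For PU.1 they were 926 and 792 on day 3 and 461 and 635 on day 1. Every library placed a peak there, and the 10 values are each on the scale of their own list. The intron of Setbp1, which encodes a protein that binds SET, came next, with 130, 87.6 and 54.8 in IRF4 day 3 libraries and 96.2, 186 and 161 in IRF4 day 1 libraries. Of the 20 leading regions, 14 were called in all 10 libraries, 10 lay in introns, 9 between genes and 1 in a promoter.

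Several leading regions lay at genes with known parts in B cells. The promoter region of Cnpy3, a chaperone that Toll-like receptors need to reach the cell surface or endosome, lay 0.581 kb from the start. It had IRF4 enrichments of 103, 83.2 and 96.2 on day 3, against 65.5 and 125 in replicates 1 and 3 on day 1, where replicate 2 had no peak. The region 15.6 kb from Siglecg, an inhibitory receptor of B cells, had 108, 59.4 and 63.1 on day 3 and 58.6, 103 and 112 on day 1 for IRF4. Its PU.1 enrichments were 479 and 2012 on day 3 and 1833 and 1818 on day 1, so the low PU.1 value belongs to 1 day 3 library. The region 10.5 kb upstream of Syk (Sykb in the annotation), the kinase that relays antigen receptor signals, had 81.8, 51.6 and 185 on day 3 and 56.9, 93.5 and 94.3 on day 1 for IRF4. PU.1 enrichments there were 2032 and 1872 on day 3, against 1226 and 1906 on day 1, and all 10 libraries had a peak.

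An EICE lay within 100 bp of the peak position in 294 of 697 core regions, or 42.2% (95% Wilson interval 38.6 to 45.9). It lay in 256 of 1799 other IRF4 day 1 peaks (14.2%, interval 12.7 to 15.9), and the share over the whole list was 22%. The element was searched as GGAA, any 2 bases and GAAA, on both strands. The difference of 27.9 percentage points passed Fisher's exact test (two-sided, p = 1.18e-47). The core was chosen to have PU.1 and the other peaks were not, so groups with PU.1 are compared further below. Windows 2 kb from the core held an EICE in 2.51%. The unit of this and the following tests of shares is the region. All regions come from the same libraries, so these p-values do not include the spread between libraries, and intervals cover counting error only.

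The shares were also taken over the peaks of each library. The core regions are the same ones in every library, so these values are not separate evidence and carry no test. Among the peaks of the IRF4 day 3 libraries the EICE share was 42.1%, 44.5% and 39.6% at the core, against 19.6%, 25.1% and 14.8% at the library's other peaks. In the IRF4 day 1 libraries it was 48.0%, 42.2% and 41.6% at the core, against 25.8%, 7.85% and 7.42% elsewhere. In the 4 PU.1 libraries it lay between 42.0% and 42.5% at the core, against 9.96% to 13.03% elsewhere. The gap was narrowest, 19.3 points, in IRF4 day 3 replicate 2 and widest, 34.4 points, in IRF4 day 1 replicate 2.

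Against regions most like the core, the EICE share was again higher. IRF4 peaks of both days without PU.1 held an EICE in 3.51% of 228 regions, 38.7 points below the core (Fisher's exact test, p adjusted over 3 groups 7.20e-34). PU.1 peaks of both days without IRF4 held one in 12.4% of 12542, 29.8 points below (Fisher's exact test, adjusted p = 2.51e-79). IRF4 day 1 peaks without an IRF4 day 3 partner were taken with PU.1 on day 1, whether or not PU.1 was there on day 3. They held an EICE in 28.1% of 588, 14.1 points below (Fisher's exact test, adjusted p = 1.39e-07). That last call was lost when the lists were rebuilt without IRF4 day 1 replicate 2 (11.1 points, Fisher's exact test, adjusted p = 0.0747) or replicate 3 (10.6 points, adjusted p = 0.0806).

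**Figure D2:**
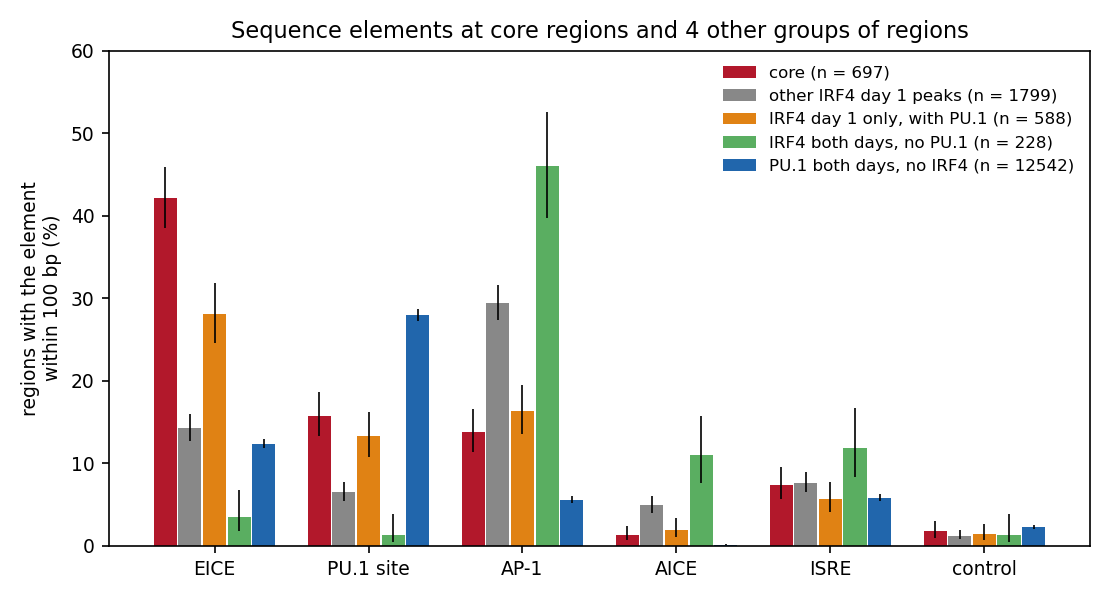
Share of regions with each sequence element within 100 bp of the peak position, in the core and 4 other groups of regions (bars, with 95% Wilson intervals of counting error). The EICE reaches 42.2% in the core and 3.51% where IRF4 lacks PU.1, while AP-1 is found in 13.8% of the core and 46.1% of those regions.

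PU.1 strength moved with this result. Among core regions in the top 10% of the PU.1 day 1 list, 48.0% of 454 held an EICE, against 41.8% of 184 day 1-only regions with PU.1 and 17.6% of 1034 PU.1 peaks without IRF4. Between percentiles 75 and 90 the shares were 37.0% of 154, 33.8% of 160 and 15.9% of 2210. In the lower part of the list, up to percentile 50, they were 16.1% of 31, 9.71% of 103 and 9.53% of 5498. At like PU.1 strength the intervals of the core and of PU.1 peaks without IRF4 were apart in the 3 upper ranges, whereas those of the core and of day 1-only regions with PU.1 overlapped in all 4 ranges. The share also varied with IRF4 strength on day 3. Over the core in 4 equal parts by IRF4 day 3 enrichment, low to high, it was 33.1%, 36.8%, 46.55% and 52.3%, and over 4 parts by PU.1 day 1 enrichment 30.3%, 38.98%, 43.02% and 56.65%. In the lowest 25% of the IRF4 day 1 list, where values of 2 libraries are mixed, an EICE was found in 40.1% of 157 core regions and 17.6% of 467 other peaks, and in the highest 25% in 38.7% of 204 and 9.58% of 428. These breakdowns by strength were added after the shares were known and carry no test.

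**Figure D3:**
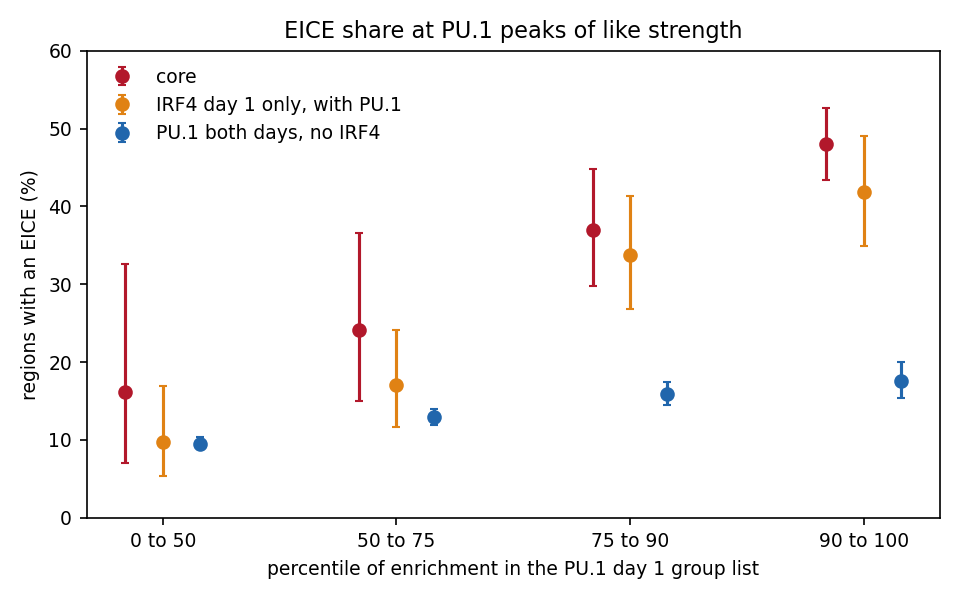
Share of regions with an EICE (y axis, with 95% Wilson intervals) in 4 ranges of percentile of the PU.1 day 1 group list (x axis), for the core, day 1-only IRF4 regions with PU.1, and PU.1 peaks of both days without IRF4. In the top range the core stands at 48.0%, the day 1-only regions at 41.8% and PU.1 peaks without IRF4 at 17.6%.

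The largest excess was at 1 spacing. With GGAA and GAAA on the same strand and 0 to 12 bases between them, the share of core regions with the pair was 42.2% at a distance of 2 and between 1.87% and 5.02% at every other distance. Smaller differences, which were not tested, were seen at 8 bases (3.59% of the core and 1.445% of other IRF4 day 1 peaks) and at 9 bases (4.59% and 2.89%). At 3 bases it was 3.01% in the core and 3.17% in the other IRF4 day 1 peaks, where the whole list had 3.12%, and this difference did not pass (Fisher's exact test, adjusted p = 0.899). A control with the same letters in reverse order, AAAG, 2 bases and AAGG, was found in 1.72% of the core and 1.22% of other peaks (1.36% of the list, Fisher's exact test, adjusted p = 0.508).

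**Figure D4:**
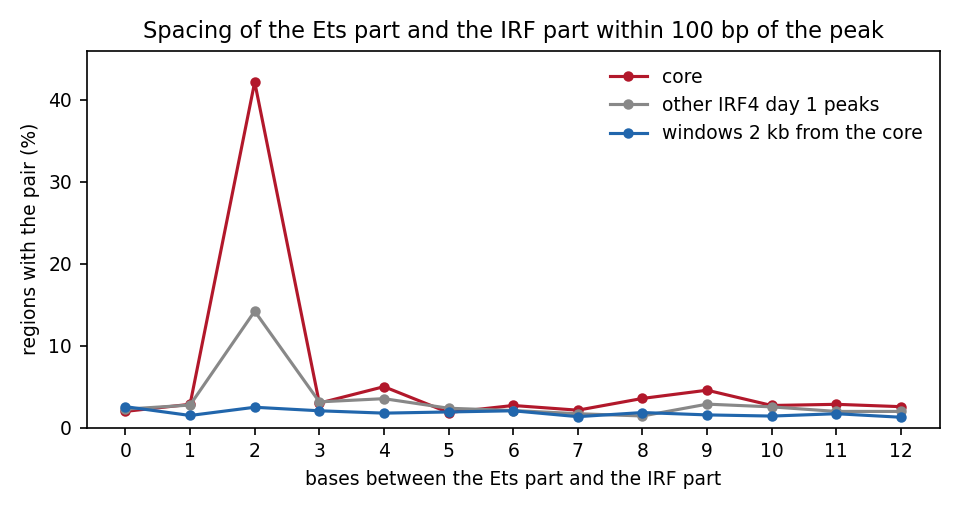
Share of regions (y axis) in which GGAA is followed on the same strand by GAAA after the number of bases on the x axis, within 100 bp of the peak. The core reaches 42.2% at 2 bases, other IRF4 day 1 peaks reach 14.2% there, and windows 2 kb away hold it in at most 2.58% at any distance.

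Elements of AP-1 partners were less common in the core than in the pooled other IRF4 day 1 peaks. The AP-1 site (TGACTCA or TGAGTCA) was found in 13.8% of the core and 29.4% of other IRF4 day 1 peaks, with 25% over the list (difference -15.6 points, Fisher's exact test, adjusted p = 2.58e-16). The AICE, searched as GAAA next to an AP-1 site or TTTC 4 bases before it, was found in 1.29% and 4.89% (3.89% of the list, Fisher's exact test, adjusted p = 1.58e-05). When each list was reduced to its stronger 50% the AICE call was lost (Fisher's exact test, adjusted p = 0.0562). The ISRE, searched as a pair of GAAA with 2 bases between, was found in 7.32% and 7.62% (7.53% of the list), a difference that did not pass (Fisher's exact test, adjusted p = 0.899). A common PU.1 site, GAGGAAGT, was found in 15.8% of the core and 6.50% of other peaks (9.09% of the list, Fisher's exact test, adjusted p = 1.84e-11). Without IRF4 day 1 replicate 2 that difference was 5.09 points and did not pass (Fisher's exact test, adjusted p = 0.115). The rule required PU.1 peaks in the core but not in the other peaks. An excess of a PU.1 site is thus partly built in, and its test is not separate evidence. These p-values are Fisher's exact tests adjusted over 6 elements. The other peaks are a mixture, and the like groups, given without a test, lay on either side of the core. Day 1-only regions with PU.1 held an AP-1 site in 16.3%, an AICE in 1.87% and the PU.1 site in 13.3%. PU.1 peaks of both days without IRF4 held them in 5.55%, 0.136% and 27.95%, and IRF4 peaks of both days without PU.1 in 46.05%, 10.96% and 1.32%. Base composition was close, with 46.9% G and C in core windows and 46.5% in the other peaks.

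The EICEs lay near the peak. Of 372 EICEs within 500 bp of core peak positions, 143 (38.4%) were within 20 bp and 256 (68.8%) within 50 bp. A single EICE was present in 282 core regions, and 11 regions held 2 and 1 region held 3.

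Most core EICEs carried 1 of 2 spacers. Of 307 EICEs in the core, 122 read GGAACTGAAA and 99 read GGAAGTGAAA, together 72.0%. The second spacer base was T in 82.1% of core EICEs, in 74.6% of those at other IRF4 day 1 peaks, in 67.7% of those at PU.1 peaks without IRF4 and in 14.9% of those 2 kb from IRF4 day 1 peaks. The base just before GGAA was A in 60.6% and G in 32.6% of core EICEs. The balance between the spacers differed between groups. GGAACTGAAA made up 39.7% of core EICEs and 15.1% of those at PU.1 peaks without IRF4, whereas GGAAGTGAAA made up 32.2% and 37.0%.

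Counted from PU.1, the spacer CT went with IRF4 more often. Of 430 PU.1 peaks of both days with GGAACTGAAA, 27.7% had IRF4 on both days (interval 23.7 to 32.1), against 12.4% of 824 with GGAAGTGAAA (10.3 to 14.8), 13.7% of all 2158 with any EICE and 3.35% of 11974 without one. The median PU.1 percentile was 79.2 for the first and 81.1 for the second spacer, so the PU.1 peaks were of like rank. Within the core, regions with GGAACTGAAA had a median IRF4 day 3 percentile of 81.0 and those with GGAAGTGAAA one of 71.1, while their PU.1 day 3 medians were 95.9 and 98.0. Of the 20 leading regions, 15 held an EICE, in 13 of them with CT and in 1 with GT. These spacer values were picked after they were seen and carry no test.

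Among the 403 core regions without an EICE, 112 (27.8%) held the form with GAGA, that is GGAA, any 2 bases and GAGA, against 7.84% of 1543 other IRF4 day 1 peaks without an EICE and 1.25% of windows 2 kb away. It was the most frequent of the 12 forms with 1 letter of GAAA changed. Those next in order, GGAA and GAAG, were at 5.71% and 4.22%. The 2 forms of the element together covered 406 core regions (58.2%), against 20.96% of other IRF4 day 1 peaks, 40.8% of day 1-only regions with PU.1 and 18.5% of PU.1 peaks without IRF4. In the GAGA form the spacer GT was found in 57 of 118 elements and CT in 42. Core regions without an EICE held an AP-1 site in 17.1%, against 9.18% of core regions with one, and all 9 core regions with an AICE lacked an EICE. GGAA alone was present in 98.0% of core windows, but also in 93.1% of other IRF4 day 1 peaks and 85.9% of windows 2 kb away. A letter match describes these windows and shows no binding by itself.

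Peak positions of IRF4 and PU.1 libraries were compared along the element in the 282 core regions with a single EICE. A library entered only with the regions where it had a peak, 185 to 268 for IRF4 and 281 or 282 for PU.1. The library means thus cover different sets of regions, of which 90 had a peak in all 10 libraries. Peak positions entered the rule through the 200 bp limit, and the element had to lie within 100 bp of the IRF4 day 1 position, so only the direction along the element was not used in choosing the regions. The value of a library was the mean distance of its peaks from the EICE centre, positive towards GAAA. IRF4 day 3 libraries stood at 4.02, 1.34 and 5.44 bp, and IRF4 day 1 libraries at 1.08, 0.985 and -0.238 bp. PU.1 day 3 libraries stood at -1.59 and -0.795 bp, and PU.1 day 1 libraries at -0.858 and 1.87 bp. The ranges of the factors overlapped through PU.1 day 1 replicate 2. IRF4 averaged 2.11 ± 2.15 bp (SD, n = 6) and PU.1 -0.343 ± 1.52 bp (SD, n = 4), a difference of 2.45 bp that did not pass (exact permutation test, two-sided, p = 0.0905, adjusted over 5 offset comparisons 0.167).

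Over the 90 regions with a peak in all 10 libraries the difference was 0.938 bp (exact permutation p = 0.7). Over all regions of each library, but without PU.1 day 1 replicate 2, it was 3.19 bp (exact permutation p = 0.0476). On day 3 alone it was 4.79 bp and on day 1 alone 0.101 bp, where 3 against 2 libraries cannot go below 0.1. IRF4 day 3 libraries averaged 3.6 ± 2.09 bp and day 1 libraries 0.609 ± 0.734 bp (SD, n = 3 each), a difference of 2.99 bp. Every day 3 library lay above every day 1 library, and the exact permutation p of 0.1 is the smallest that 3 against 3 allows. The median distance from the EICE regardless of direction, which those limits bound, was 26.0 ± 5.99 bp in IRF4 libraries (n = 6) and 16.4 ± 5.81 bp in PU.1 libraries (n = 4; exact permutation p = 0.0476, adjusted 0.167). A single region's position scattered far more, with an SD of 26.9 to 46.6 bp over regions within a library.

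**Figure D5:**
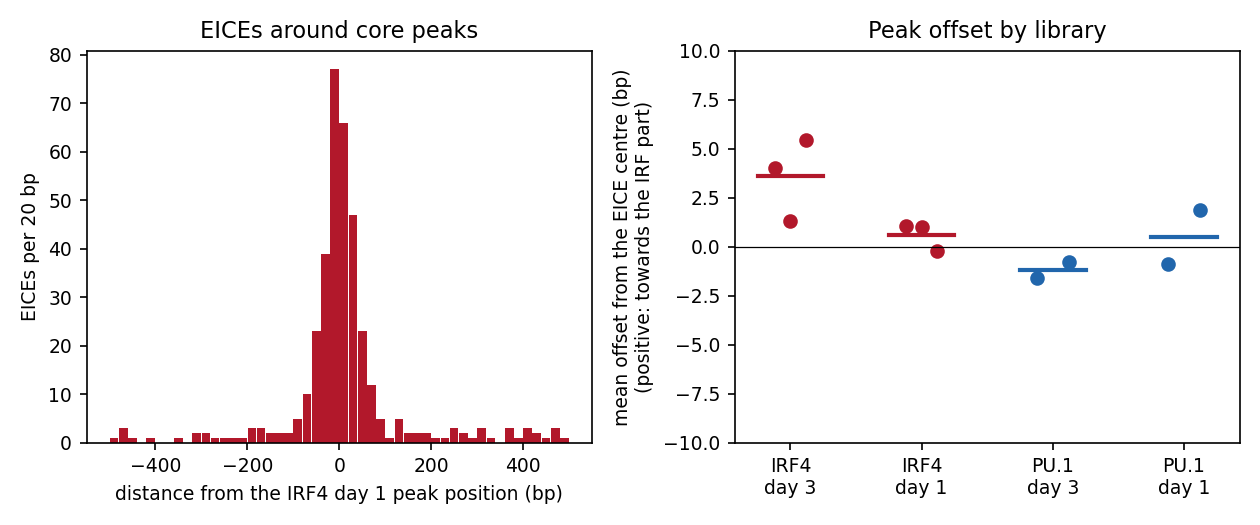
Left, number of EICEs per 20 bp against distance from the IRF4 day 1 peak position over the 697 core regions. Right, mean offset of each library's peaks from the EICE centre in core regions with a single EICE (points, lines for group means, positive towards GAAA), from 5.44 bp in an IRF4 day 3 library to -1.59 bp in a PU.1 day 3 library.

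Core regions were mostly away from promoters. By peak position 69 (9.90%) were within 1 kb of a start of a protein-coding gene, 20 (2.87%) in exons, 300 (43.0%) in introns and 308 (44.2%) between genes. The other IRF4 day 1 peaks had 10.0% in promoters, 1.45% in exons, 42.1% in introns and 46.5% between genes, and the whole list 9.98%, 1.84%, 42.3% and 45.8%. None of the 4 differences passed (Fisher's exact test, lowest adjusted p = 0.118, for exons). The exon difference of 1.42 points passed under some settings, among them a shared distance under 100 bp (Fisher's exact test, adjusted p = 0.0399) and lists without IRF4 day 3 replicate 2 (adjusted p = 0.0122), IRF4 day 1 replicate 2 (0.0190) or 3 (0.0154), or PU.1 day 1 replicate 2 (0.0301). Compared with the 12542 PU.1 peaks of both days without IRF4, fewer core regions were in promoters (9.90% against 20.2%, Fisher's exact test, adjusted p = 3.43e-12) and more between genes (44.2% against 35.7%, adjusted p = 1.33e-05). The EICE share was 37.7% in core promoters, 45.7% in introns and 39.9% between genes. The median distance to the nearest annotated start was 14.8 kb in the core and 17.1 kb in other IRF4 day 1 peaks.

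A core region lay in or within 20 kb of 734 of 22238 protein-coding genes (3.3%). Distance alone does not tie a region to a gene, and genes near the core were longer than others (median 36.4 kb, against 15.5 kb over all protein-coding genes). Bcl2, which encodes an inhibitor of cell death, was the only gene with 4 core regions, all within its introns. There were 8 genes with 3, among them Mpeg1, Ptprj, Dtx4 and Rad51l1, 54 with 2 and 671 with 1. The gene lists below, made of B cell functions and of other cell types, are compared with that 3.3%. It covers all genes, and many listed genes also had other peaks within 20 kb. In the cytokine list 13 of 16 had a PU.1 peak of both days without IRF4, and 8 an IRF4 day 1 peak of any kind. These counts were 19 and 14 of 20 in the migration list, 19 and 12 of 19 in the antigen presentation list, and 14 and 8 of 23 in the interferon list.

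Genes of antigen receptor signalling and B cell identity had a core region in 8 of 24 cases. They were the adaptor genes Blnk and Pik3ap1, the receptor subunit gene Cd79b, the phosphatase gene Inpp5d, the kinase genes Lyn and Syk, and Pax5 and Ebf1, which encode transcription factors that define B cells. All 24 had a PU.1 peak of both days without IRF4 within the same distance, and 15 had some IRF4 day 1 peak. The Pax5 intron region, called in all 10 libraries, had IRF4 enrichments of 69.0, 47.4 and 80.5 on day 3, against 33.0, 93.2 and 120 on day 1. An intron region of Pik3ap1 had 55.7, 59.4 and 87.2 on day 3 and 57.7, 49.0 and 88.4 on day 1. Neither region separated the days, as the ranges overlapped. The Cd79b region, 8.78 kb downstream of the gene start, had 44.8, 19.7 and 39.8 on day 3 and 88.7 and 54.2 in replicates 2 and 3 on day 1, with no peak in day 1 replicate 1. The start nearest to that region was that of Gh (4.12 kb). Ebf1 held 2 core regions, 148 kb and 278 kb into the gene, called in 9 and 8 libraries. Elements at 3 of the genes are shown for comparison with the leading regions, the third with GAGA.
Pax5, intron, chr4:44684058-44684097, plus strand: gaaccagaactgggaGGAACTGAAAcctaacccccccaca
Cd79b, downstream, chr11:106167284-106167323, minus strand: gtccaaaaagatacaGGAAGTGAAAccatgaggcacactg
Pik3ap1, intron, chr19:41447053-41447092, minus strand: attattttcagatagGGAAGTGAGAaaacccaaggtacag

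Among transcription factors of B cells and germinal centres, 5 of 23 genes had a core region. They were Bach2, a repressor that opposes plasma cell differentiation, Ets1, Foxo1, Klf2 and the octamer factor gene Pou2f2. The Bach2 intron region lay 120 kb from the gene start. Its IRF4 enrichments were 97.4, 67.1 and 86.7 on day 3 and 40.4, 156 and 165 on day 1, and those of PU.1 were 751 and 749 on day 3 and 341 and 684 on day 1. Day 1 replicate 1 was the lowest IRF4 library there, and the other day 1 libraries were the highest. Ets1 held 2 regions, the first with 39.6, 26.6 and 32.9 on day 3, against 46.3, 74.6 and 45.6 on day 1. Near Klf2 the region, 3.70 kb from the gene start, held no EICE and had 28.2, 24.7 and 28.7 on day 3 and 22.7, 106 and 83.3 on day 1.
Bach2, intron, chr4:32445740-32445779, minus strand: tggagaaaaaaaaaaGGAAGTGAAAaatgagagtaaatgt

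Genes of survival and activation had regions at 3 of 12 BCL2 family and survival receptor genes and 4 of 22 NF-kB and activation genes. The 4 Bcl2 regions lay 59.9, 143, 147 and 161 kb into the gene. The region at 161 kb held an EICE with CT and had IRF4 enrichments of 59.8, 41.0 and 57.2 on day 3, against 35.9, 82.0 and 62.5 on day 1. That at 147 kb held no EICE, and its PU.1 values, 69.3 and 33.1 on day 3 and 45.0 and 39.2 on day 1, were the lowest of the 4. The receptor genes Tnfrsf13c, for BAFF, and Tnfrsf13b, for BAFF and APRIL, each had 1 region. For Myc, which encodes a growth regulator, the region 14.4 kb downstream of the gene start had 49.5 and 30.3 in IRF4 day 3 replicates 1 and 2, no peak in replicate 3, and 58, 82.3 and 99.2 on day 1. All 3 day 1 values were above the 2 day 3 values, on scales that differ between lists. The others were Batf, an AP-1 family gene, Nfkb1 and Traf1. The Myc element is shown for its spacer CT and that of the Bcl2 region at 143 kb for its GAGA.
Myc, downstream, chr15:61831310-61831349, plus strand: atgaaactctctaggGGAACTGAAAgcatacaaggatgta
Bcl2, intron 143 kb from the gene start, chr1:108467675-108467714, minus strand: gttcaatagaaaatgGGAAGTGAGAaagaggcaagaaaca

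In the list of cytokine receptor and signalling genes, made with the culture stimuli in mind, 6 of 16 were close to core regions, the highest share of the 14 lists (37.5%). They were Il2ra and Il5ra, receptor chains for added cytokines, Il10ra, the inhibitor gene Socs3, and Stat3 and Stat5a. The cytokine of Il10ra was not among those added, and its region lay in an intron of another gene, BC049352. Il5ra held 2 EICEs in 1 intron region, with IRF4 enrichments of 32.4, 26.6 and 52.9 on day 3, against 48.5, 107 and 45.3 on day 1. For Stat5a the region is also 1 of the 2 Stat3 regions, at a Stat3 start. Among migration and adhesion genes 6 of 20 had a region, namely the chemokine receptor genes Ccr6, Ccr7 and Cxcr5, the lipid receptor gene S1pr1, and Elmo1 and Rac2, which act on the actin skeleton. The S1pr1 region had 36.6 and 20.99 in IRF4 day 3 replicates 1 and 3 and no peak in replicate 2, against 31.8, 77.8 and 38.0 on day 1. The Rac2 region, 16.3 kb upstream, was called in 8 libraries, and the start nearest to it was that of Cyth4 (7.93 kb).
Il5ra, intron, chr6:106679826-106679865, minus strand: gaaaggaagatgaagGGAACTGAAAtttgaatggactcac
Rac2, upstream, chr15:78419517-78419556, plus strand: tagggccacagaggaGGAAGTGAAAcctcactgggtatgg

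Antigen presentation and costimulation genes had a region in 4 of 19 cases, at Cd74, the invariant chain gene, the protease gene Ctss, the IgE receptor gene Fcer2a and the costimulatory ligand gene Icosl. Cd74 had 2, both called in all 10 libraries, at 27.3 and 11.7 kb from the gene start. Some of these regions lay inside other genes. The Cd74 region at 27.3 kb was in an intron of Tcof1, the Fcer2a region in an intron of Clec4g, and an Icosl region in an exon of Dnmt3l. Plasma cell and secretion genes had regions in 3 of 20 cases, at Ern1, which encodes a sensor of the unfolded protein response, Il6ra and Tnfrsf13b, which also counts among the survival receptors. The Il6ra intron region had 59.6, 38.2 and 68.6 on day 3 and 33.9, 110 and 68.1 on day 1. Interferon-stimulated genes had 3 of 23, and the 3, Psmb8, Psmb9 and Tap1, share 1 region of 10 libraries in the class II part of the major histocompatibility complex. Toll-like receptor and innate signalling genes had 2 of 15, Tlr4 and Tlr9, both without an EICE. The Tlr9 promoter region, 0.033 kb from the start, had 45.7, 36.5 and 54.0 on day 3 and 29.2, 49.0 and 47.0 on day 1.

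Lists for other cells held few core regions. None was found near the 20 myeloid, 20 T and NK cell, or 15 erythroid and megakaryocyte genes listed. Of 20 neuron and liver genes 1, Gad1, had one 62.1 kb from its start. The zeros hold for the listed genes only. Genes that are not on these lists did have core regions, among them Mpeg1 with 3, Msr1 with one in an exon, and Cd244 with one 7.65 kb from its start. In lists of this size 3.3% is less than 1 gene, so these counts cannot be told from the share of all genes. Of the 20 myeloid genes, 5 had an IRF4 day 1 peak of any kind and 8 a PU.1 peak without IRF4. Median gene length was 4.503 kb in the myeloid list, against 44.4 kb in the receptor and identity list.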

How the data were processed

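The series' design text states that reads were aligned to mm9 by the authors and that QuEST gave the enrichment over an input library. The submitters' processing notes also name mm9. The aligner and the version and thresholds of QuEST are not stated in the sources used here. Peaks were called per library. The deposited fold enrichment of a peak is the authors' ratio to input at its maximum, used to rank within a list. The lists hold no read counts, so depth is unknown. The authors' list per factor and day was rebuilt exactly from library lists (a partner up to 200 bp away in another library). Deposited positions were treated as counting from 1, which the sources do not state.

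Peaks were shared when positions were under 200 bp apart. Elements were searched on both strands within 100 bp of the peak in mm9, and genes were 22238 protein-coding symbols of GENCODE M1, which is on mm9. Of 267 listed genes all matched, 3 by an older symbol. The enrichments in each IRF4 group list stem from 2 libraries, so its percentiles rank values of both together, on scales that differ. Shares were compared with Fisher's exact test and library values with exact permutation tests over libraries, two-sided, and p-values were adjusted by Benjamini-Hochberg. Python 3.11.15, scipy 1.17.1 and pysam 0.24.0 were used, and the scripts were tested on simulated data. Named regions were the 20 with the highest mean percentile over the 4 lists, and, for listed genes, those within 20 kb; 1 leading region is not reported here. The members and lists were chosen with earlier results of these data known. The test of gene positions against PU.1 peaks without IRF4, the test of undirected distance and the offsets within days were added after seeing the data. Replicate numbers follow the sample descriptions, and the sample titles number the libraries differently. Nothing in the labels shows that replicates were separate animals or cultures. A p-value over libraries thus covers the spread of these libraries alone, and that may be technical spread. Alternatives were other shared distances, windows, gene distances and promoter widths, stronger peaks only, and leaving out each library.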

Additional observations from a re-analysis of the deposited data

How the results depend on the processing

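Direction and call of the EICE difference between the core and other IRF4 day 1 peaks held under every alternative run, including GAAA or GAGA as second part, chosen after seeing the data. Of 252 alternative values, 206 kept direction and call (counts: within 1.5 times), 4 lost and 7 gained a call, 7 counts moved further, and 28 turned sign, each in a difference that did not pass at the outset. With the stronger 50% of each list the core held 250 regions, with 274 genes within 20 kb. Leaving out 1 library gave 363 to 816 core regions. It also changed how a list was made. Without 1 of 3 IRF4 libraries a peak had to be in both of those left, which is stricter. Without 1 of 2 PU.1 libraries the whole list of the library left was used, which is looser, and 816 came from leaving out PU.1 day 3 replicate 1. Genes numbered 465 within 5 kb and 1282 within 50 kb. In percentage points, leaving out 1 library gave 7.24 to 15.8 for the EICE against day 1-only regions with PU.1, 5.09 to 10.3 for the PU.1 site, -0.916 to 1.06 for the EICE with 3 bases between, -1.34 to 0.932 for the ISRE, -0.813 to 0.861 for the control, -1.53 to 3.79 for promoters and 1.09 to 2.99 for exons. A shared distance under 100 bp gave 0.156 for the element with 3 bases between, 0.0401 for the ISRE and 1.68 for exons. The stronger 50% gave 0.0392 for the element with 3 bases, -3.34 for the AICE, -0.185 for the control and -0.185 for exons. Windows of 50 bp gave 0.364 for the element with 3 bases and 0.621 for the ISRE, and windows of 250 bp gave 1.17, 1.08 and, for the control, -0.587. Promoters of 2500 bp gave 1.58 for promoters, 1.44 for exons and -0.709 for introns. The cause was not tested. Offset differences between IRF4 and PU.1 ran from 1.78 to 3.19 bp without 1 library. They were smaller than at the outset under other settings too. The difference was 0.938 bp over regions called in all 10 libraries (exact permutation p = 0.7) and 1.39 bp with windows of 50 bp (p = 0.305). With medians over regions it was 1.92 bp (exact permutation p = 0.329), and with the nearest EICE of all regions 2.19 bp (p = 0.119).

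Sample titles and descriptions number the libraries differently, and neither is said to mark a shared culture or day. Over core calls, IRF4 libraries of the 2 days with the same description number correlated at 0.060, -0.089 and 0.094 in their deviations from the group means, and those with the same title number at -0.051 and -0.061. For pairs with a PU.1 day 1 library this could not be computed, as their calls do not vary. With a replicate block by description number the offset of IRF4 minus PU.1 was 2.20 bp (exact sign-flip test over 4 pairs, p = 0.25, smallest possible 0.125), and that of IRF4 day 3 minus day 1 was 2.99 bp (exact sign-flip test over 3 pairs, p = 0.25, the smallest possible). With title numbers, chosen after seeing the data, they were 0.622 bp (exact sign-flip test over 3 pairs, p = 0.75) and 2.31 bp (2 pairs, p = 0.5, the smallest possible).

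Peaks without read counts give no error for a single region. IRF4 calls depend on the list length of each library, from 825 to 9326 peaks. Enrichments of different lists are not on a common scale. Region tests count regions, not libraries. Gene assignment is by distance alone.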
